A study of Mus musculus with 14 samples.

Results

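Oligodendrocyte lineage genes encode the transcription factors that set up and mature the myelin-forming glia of the brain, the surface proteins that mark their precursors, and proteins of myelin itself. The genes described here were Olig1, Olig2, Olig3, Sox10, Sox8, Tcf7l2, Pdgfra, Cspg4, Gpr17 and Mbp, chosen by name for their place in this lineage. Each gene was given a window of its body and 20 kb on either side, in the mouse build mm10 with GENCODE M21 gene models, and every listed peak of trimethylated lysine 27 on histone H3 (H3K27me3) that overlapped a window was kept. This gave 57 of 23668 listed peaks, spread over 9 of the 10 genes. Of all 21951 protein-coding genes, 42% had a listed peak in such a window.

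H3K27me3 was profiled by ChIP-seq in wild-type mouse primary hippocampal neurons with an antibody to the modified histone (07-449, Millipore). The neurons came from CD1 embryos of either sex, both groups were grown in the same medium, and gapmers were delivered in lipid nanoparticles. A gapmer is a short oligonucleotide that pairs with an RNA and leads to its cleavage. The control cultures received a negative control gapmer (NC) without a known target, and the knockdown cultures received gapmers against NeuID, a long noncoding RNA of neurons. The labels give 6 ChIP libraries to the control, 6 to the knockdown and 1 input to each condition, and do not say whether the libraries of a group came from separate cultures.

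The values are the authors' means of normalized reads per peak and group on the log2 scale. The overall mean of the peaks weighted the group means as 6 control and 5 knockdown libraries would, although the labels give 6 of each. Values of single libraries were not analysed here. Nothing below therefore carries an SD or a test, depth per library is unknown, and a mean could be set by 1 library. A difference is the knockdown minus the control mean on the log2 scale, and 1 or more in either direction (2-fold) is used as a descriptive limit. Over all listed peaks 20.6% were lower and 20.4% higher in the knockdown by that limit. In these bulk cultures, a change in the share of a cell type and a change of the mark per cell cannot be told apart.

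H3K27me3 is written by Polycomb repressive complex 2, whose catalytic subunit is EZH2, and it is typically found over CpG-rich starts of developmental genes that a cell does not use. Neurons and oligodendrocytes share neural progenitors. In the deposited peaks a listed peak lay within 1 kb of the start for 5 of the 10 lineage genes, namely Olig1, Olig2, Olig3, Sox10 and Pdgfra, against 9.78% of 21951 protein-coding genes. The same was asked of marker genes. With start peaks at 9.78% of all protein-coding genes, lists of 5 to 8 genes cannot check the labelled cell type. A start peak was present for 1 of 8 neuron markers (Syt1, with a control mean of 2.06 and a knockdown mean of 2.39), for 0 of 6 astrocyte markers, for 0 of 5 microglia markers and for 0 of 5 genes in use in every cell. Absence of the mark at a start does not show that a gene is expressed, and expression was not measured in these libraries.

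Across the 57 peaks no common direction was seen. In the knockdown, 9 peaks (15.8%) were lower and 8 (14.0%) were higher by 2-fold or more, both shares below the 20.6% and 20.4% of all listed peaks. The median difference was -0.20, against -0.02 over all peaks. Of the 57, 34 (59.6%) were below 0, against 50.8% of all listed peaks. Among peaks with an overall mean of 4 or more, the shares below 0 were 63.2% and 57.4%. Summed over the windows, the reads came to 1074 in the control and 1024 in the knockdown. This was 95.4% of the control, beside 97.1% for all listed peaks. By place, the knockdown sum was 112.1% of the control within 1 kb of starts, 82.8% upstream, 85.6% in gene bodies and 104.2% downstream. The first includes a peak over Olig1 (9.25 and 61.4 reads) and the last a peak downstream of Olig2 (5.30 and 37.8). Larger differences were found at single peaks. Higher in the knockdown were, among others, a peak over Olig1, one downstream of Olig2, one ahead of Pdgfra and one inside Cspg4. Lower were 3 peaks inside Tcf7l2, 2 in the Olig3 window, 2 ahead of Pdgfra, 1 downstream of Olig2 and 1 downstream of Gpr17.

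**Figure D1:**
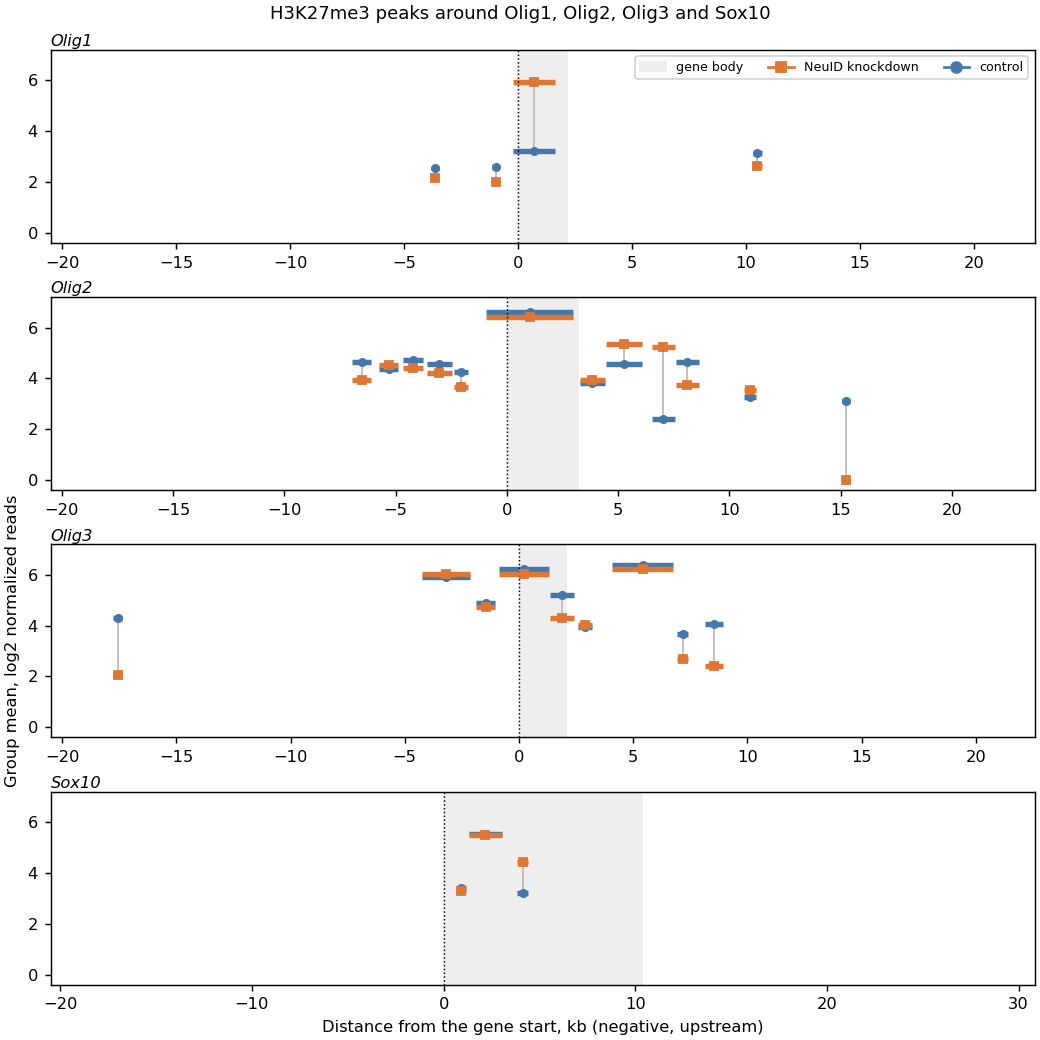
H3K27me3 group means (log2 normalized reads) of each listed peak, against distance from the gene start in kb, for Olig1, Olig2, Olig3 and Sox10. Bars span the peaks, blue circles are control and orange squares NeuID knockdown, and the grey area is the gene. The groups lie together at the starts of Olig2 (6.60 and 6.41) and Olig3 (6.22 and 6.02), while at Olig1 the knockdown lies at 5.94 and the control at 3.21.

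Olig1 and Olig2 are neighbouring genes on chromosome 16 that encode basic helix-loop-helix transcription factors. OLIG2 specifies oligodendrocyte precursors, and OLIG1 acts in their maturation. Their promoter sequences are shown because the strongest peaks of the region by overall mean lie over them. In the control alone, the Olig1 peak (3.21) was weaker than most peaks of the Olig2 window. Both stretches end at the base before the GENCODE start. Capitals mark CG dinucleotides, which read the same on both strands, and 94.2% of 27025 RefSeq promoters of 300 bases hold at least 1. The RefSeq promoter table (GRCm38, the assembly of mm10) held an entry for 6 of the 10 genes. The Olig2 stretch comes from that table (chr16:91225300-91225456, plus strand, 157 bases with 14 CG), and the Olig1 stretch is the part of its start peak that lies ahead of the gene (chr16:91269557-91269771, plus strand, 215 bases with 17 CG).
Olig2 promoter: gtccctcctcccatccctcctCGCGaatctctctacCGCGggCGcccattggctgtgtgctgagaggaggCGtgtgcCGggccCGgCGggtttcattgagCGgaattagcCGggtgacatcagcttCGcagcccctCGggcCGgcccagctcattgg
Olig1 promoter: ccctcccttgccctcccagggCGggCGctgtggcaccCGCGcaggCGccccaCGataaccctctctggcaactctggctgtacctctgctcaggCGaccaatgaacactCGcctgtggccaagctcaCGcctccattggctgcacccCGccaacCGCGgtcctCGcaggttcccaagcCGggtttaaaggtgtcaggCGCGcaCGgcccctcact
Both are dense in CG, with 8.92 per 100 bases at Olig2 and 7.91 at Olig1, against a median of 2.33 over the RefSeq promoters. Such density is common, since 30.1% of those promoters held 6 or more per 100 bases. The stretches are shorter than the promoters of 300 bases, so the densities are not taken over like lengths.

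Olig1 (chr16:91269772-91271933, plus strand) had 4 peaks. The peak over its start, coding exon and UTR (chr16:91269557-91271396, 1840 bp) had a mean of 3.21 in the control and 5.94 in the knockdown, or 9.25 and 61.4 normalized reads. Its difference of 2.73 was the highest of all 836 listed peaks with an overall mean from 5 to 6. Among the 1126 peaks whose overall mean lay within 0.5 of its own (peaks of like overall mean), 2 differed as far upwards, this peak included, and the middle 50% lay between -0.53 and 0.32. The other 3 peaks of Olig1 were weak and lay the other way. A second peak near the start, 0.813 kb ahead of it, had 2.58 in the control and 2.00 in the knockdown. The peaks 3.47 kb upstream and 10.3 kb downstream differed by -0.37 and -0.49. The sum over the window was thus 29.8 reads in the control and 76.2 in the knockdown, a log2 ratio of 1.36, and without the start peak the ratio was -0.48.

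Olig2 (chr16:91225457-91228677, plus strand) lay in a run of 12 peaks. The peak over its start spanned 3918 bp and was the strongest of the 57, with 6.60 in the control and 6.41 in the knockdown, a difference of -0.20 that sits inside the middle 50% of peaks of like overall mean (-0.38 to 0.11). Of the 5 upstream peaks, 4 were lower in the knockdown, with differences from -0.72 to -0.28, and the remaining one was higher by 0.19. None of these reached 2-fold. The downstream side was less even. A peak 6.51 kb from the start (chr16:91231971-91233021, between genes, 1051 bp) had 2.41 in the control and 5.24 in the knockdown, or 5.30 and 37.8 reads, a difference of 2.83. Of 2441 peaks of like overall mean, 8 differed as far upwards, this one included. Its neighbour on the gene side was higher by 0.77, and the adjoining peak beyond it differed by -0.89. The outermost peak of the window, 15.1 kb from the start, was listed at 0 in the knockdown, which stands for a mean of no more than 1 normalized read, and had 3.11 in the control. The window summed to 297.9 and 296.0 reads in control and knockdown, a log2 ratio of -0.01. The higher and the lower peaks thus nearly balanced in the sum.

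The middle 300 bases of the downstream peak are shown because this peak stood apart while the promoter did not (chr16:91232347-91232646, plus strand, 17 CG).
Olig2 downstream peak: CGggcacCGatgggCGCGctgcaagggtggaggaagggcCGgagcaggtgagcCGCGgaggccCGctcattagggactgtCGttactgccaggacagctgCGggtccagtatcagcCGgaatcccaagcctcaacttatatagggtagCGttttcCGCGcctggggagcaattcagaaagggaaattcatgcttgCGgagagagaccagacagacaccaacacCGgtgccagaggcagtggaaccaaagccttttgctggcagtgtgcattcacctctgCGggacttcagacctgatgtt
It held 5.67 CG per 100 bases. The whole peak held 4.00, between the median of 1.23 and the 90th percentile of 4.44 over all listed peaks.

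Olig3 (chr10:19356533-19358604, plus strand) is the third member of the family and is best known from dorsal progenitors of the spinal cord and hindbrain. Its window held the most control reads of the 10 genes. Its promoter, from the RefSeq table and ending ahead of the GENCODE start, is shown for comparison with those of Olig1 and Olig2 (chr10:19356289-19356532, plus strand, 4 CG in 244 bases).
Olig3 promoter: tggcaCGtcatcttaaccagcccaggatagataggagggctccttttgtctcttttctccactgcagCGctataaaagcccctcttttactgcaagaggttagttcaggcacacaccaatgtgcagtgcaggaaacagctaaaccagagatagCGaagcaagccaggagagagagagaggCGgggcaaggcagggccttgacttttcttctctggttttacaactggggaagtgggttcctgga
With 1.64 CG per 100 bases, this stretch was poorer in CG than the other two, although the whole start peak held 4.16 per 100 bases.

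Of the 9 Olig3 peaks, 7 were lower in the knockdown. The start peak had 6.22 in the control and 6.02 in the knockdown. The strongest peak (2691 bp, 4.07 kb downstream of the start) had 6.37 and 6.22, and the peak 2.14 kb upstream had 5.92 and 6.05, the highest difference of the gene at 0.13. These 3 peaks, with overall means near or above 6, thus differed by 0.20 or less. A weaker peak 1.35 kb into the gene, over a UTR, had 5.22 and 4.29, a difference of -0.94. The 2 that passed 2-fold were the outermost listed peaks on either side of the gene. A peak 17.4 kb upstream had 4.29 in the control and 2.06 in the knockdown (difference -2.23), and the last peak, 8.15 kb downstream, had 4.06 and 2.42 (difference -1.65). Summed reads were 350.0 and 284.4, a log2 ratio of -0.30.

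Sox10 (chr15:79154908-79165240, minus strand) encodes a transcription factor that is kept on through the whole oligodendrocyte lineage. It had 3 peaks, all inside the gene. The one nearest its start, 0.692 kb into the gene and over a UTR, had 3.41 in the control and 3.30 in the knockdown. The strongest, over a coding exon 1.30 kb in, had 5.51 and 5.49 and was nearly equal between the groups. An intronic peak 3.84 kb in had 3.19 and 4.44, a difference of 1.25. Of 4381 peaks of like overall mean, 8.79% differed as far upwards. Sox8, which encodes a close relative of SOX10 with overlapping roles in myelination, had no listed peak in its window, and the nearest lay 72.8 kb from its start.

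Tcf7l2 (chr19:55741820-55933654, plus strand) encodes a factor that pairs with beta-catenin in Wnt signalling and acts in oligodendrocyte maturation, and it is also found in some neurons. None of its 9 peaks lay within 1 kb of its start. The nearest, in an intron 1.84 kb in, had 4.03 in the control and 3.12 in the knockdown (difference -0.91). A group of 6 peaks lay 136 to 158 kb into the gene. A peak at 143 kb had 3.69 in the control and 1.18 in the knockdown, one at 151 kb had 4.44 and 1.78, and one at 158 kb had 3.62 and 1.00. These differences of -2.51, -2.66 and -2.62 make up all the Tcf7l2 peaks past 2-fold. Among peaks of like overall mean, 6.38%, 2.62% and 6.24% differed as far downwards. Between them lay peaks that went the other way, with differences of 0.26 at 153 kb and 0.70 at 158 kb. The latter adjoined the third of the lower peaks. The peak at 153 kb lay over an inner start of the gene in the RefSeq promoter table.

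The peak at 151 kb, the strongest of the gene and the one with the lowest difference, overlaps a non-coding exon. Its middle 300 bases are shown for contrast with the Olig sequences (chr19:55893335-55893634, plus strand, 7 CG).
Tcf7l2 peak: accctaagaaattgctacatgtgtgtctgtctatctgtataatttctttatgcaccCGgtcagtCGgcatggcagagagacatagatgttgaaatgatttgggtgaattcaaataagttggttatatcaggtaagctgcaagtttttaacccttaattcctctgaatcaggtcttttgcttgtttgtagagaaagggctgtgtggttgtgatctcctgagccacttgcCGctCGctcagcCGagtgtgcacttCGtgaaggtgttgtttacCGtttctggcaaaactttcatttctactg
It held 2.33 CG per 100 bases. Over the Tcf7l2 window the reads came to 99.9 in the control and 58.0 in the knockdown, which is 58.1% of the control and a log2 ratio of -0.78. Of the 456 protein-coding windows with 9 or more peaks, the lowest ratio was -0.83 and the middle 50% lay between -0.25 and 0.07. Those windows were not matched on strength, and no Tcf7l2 peak had an overall mean above 3.74. Weaker peaks spread more widely. The middle 50% of all differences lay between -0.84 and 0.63 at overall means of 3 to 4, and between -0.36 and 0.09 at 6 or more.

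**Figure D2:**
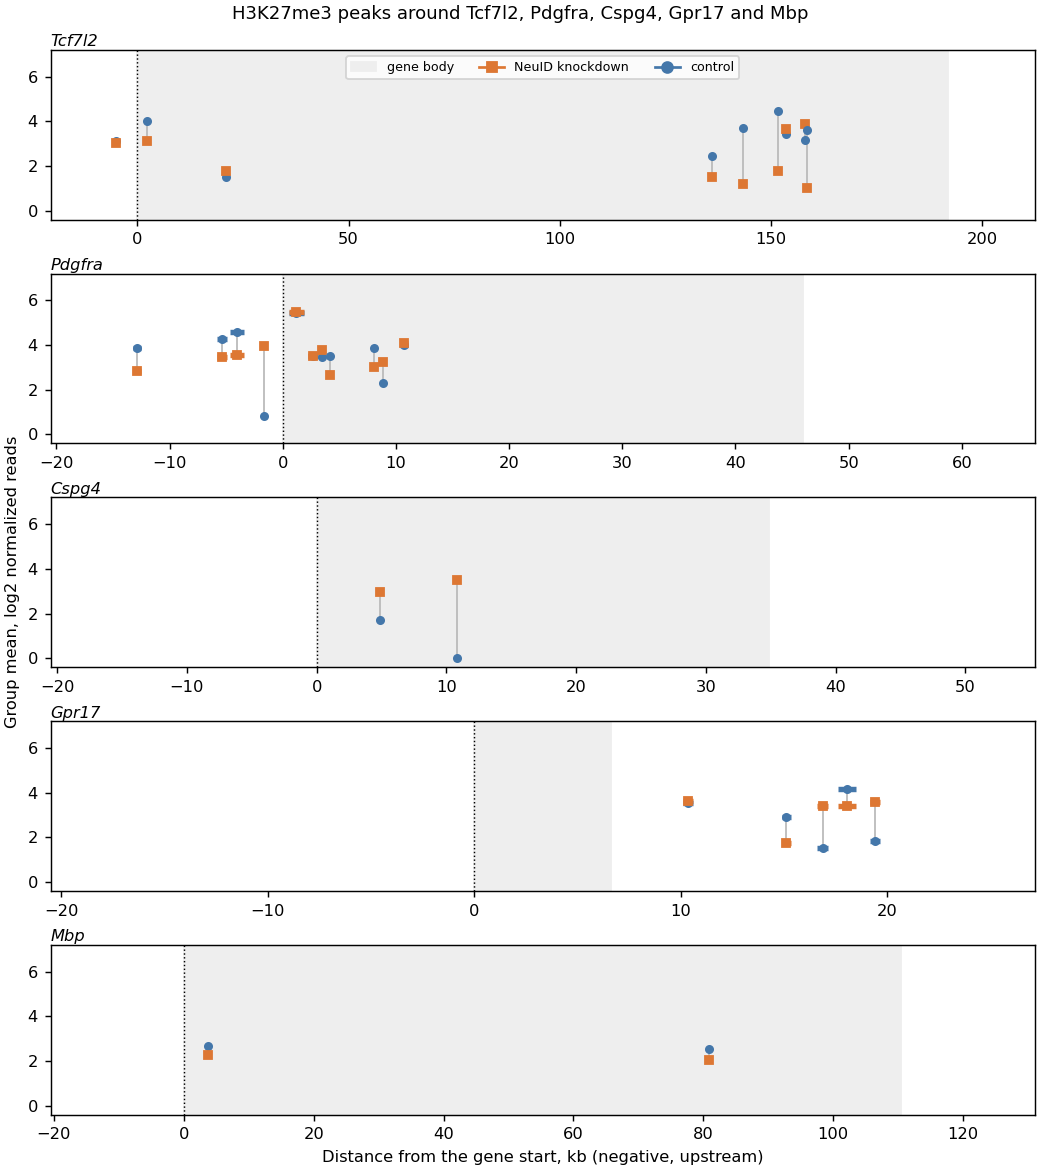
H3K27me3 group means (log2 normalized reads) of each listed peak against distance from the gene start in kb for Tcf7l2, Pdgfra, Cspg4, Gpr17 and Mbp, drawn as for the Olig genes with a scale of its own on each horizontal axis. In Tcf7l2 the knockdown lies at 1.18, 1.78 and 1.00 where the control lies at 3.69, 4.44 and 3.62, and at Pdgfra the groups meet at the start (5.42 and 5.48).

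Pdgfra (chr5:75152292-75198215, plus strand) encodes the receptor for platelet-derived growth factor that drives division of oligodendrocyte precursors. It had 11 peaks. The strongest lay 0.521 kb into the gene, over a UTR and a non-coding exon of the neighbouring transcript Gm42802, and had 5.42 in the control and 5.48 in the knockdown. Upstream the values spread. A peak 1.43 kb ahead of the start (chr5:75150451-75150867, 417 bp) had 0.83 in the control and 3.98 in the knockdown, or 1.78 and 15.8 reads, the highest difference of any member peak above 0 in both groups (3.15). Next to it, a peak 3.44 kb ahead had 4.57 and 3.56, and the farthest, 12.5 kb ahead, had 3.89 and 2.82, differences of -1.01 and -1.07. Their directions differed, and the Pdgfra window summed to 171.0 and 156.1 reads, a log2 ratio of -0.13. The middle 300 bases of the peak 1.43 kb ahead of the start are given since it separated the groups most (chr5:75150510-75150809, plus strand, 8 CG).
Pdgfra upstream peak: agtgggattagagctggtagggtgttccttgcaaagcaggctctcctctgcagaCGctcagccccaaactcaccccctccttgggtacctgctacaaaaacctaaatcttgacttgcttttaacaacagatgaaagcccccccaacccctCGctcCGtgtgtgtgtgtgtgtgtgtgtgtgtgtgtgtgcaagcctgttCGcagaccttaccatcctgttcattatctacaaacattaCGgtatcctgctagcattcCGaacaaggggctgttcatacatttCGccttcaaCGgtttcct
With 2.67 CG per 100 bases it lay closer to the Tcf7l2 peak than to the Olig2 downstream peak, and 2.73% of 11789 peaks of like overall mean differed as far upwards.

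The remaining surface and myelin genes carried little of the mark. Cspg4, which encodes the NG2 proteoglycan of precursors, had 2 weak intronic peaks. One, 4.77 kb into the gene, had 1.73 in the control and 2.98 in the knockdown. The other, 10.6 kb in, was listed at 0 in the control and had 3.52 in the knockdown, so no fold is given for it. Gpr17 encodes a receptor of precursors that are about to mature. Its 5 peaks all lay downstream, at 10.1 to 19.1 kb from its start, inside the neighbouring gene Lims2. The strongest of them had 4.15 in the control and 3.38 in the knockdown. The others ran in both directions, from 2.90 and 1.76 (difference -1.14) to 1.53 and 3.40 (difference 1.86). Mbp, which encodes a main protein of compact myelin, had 2 peaks far apart, in an intron 3.53 kb in and over a UTR 80.7 kb in. The first had 2.68 in the control and 2.28 in the knockdown, the second 2.56 and 2.03, and neither reached 2-fold.

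Peaks listed at 0 in a group were few. Among the 57, 1 was at 0 in the knockdown (Olig2) and 1 in the control (Cspg4), against 3.35% and 3.28% of all listed peaks.

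Peaks over starts were looked at on their own. Of the 6 peaks within 1 kb of the start of a lineage gene, 0 were lower and 1 was higher by 2-fold, the Olig1 peak, beside 13.1% lower and 14.7% higher among 2603 such peaks of all protein-coding genes. The other 5 start peaks differed by -0.58 to 0.06. The same was done by strength. Of the 19 member peaks with an overall mean of 4 or more, 1 was lower and 2 were higher by 2-fold, against 9.12% and 5.02% of the 3344 listed peaks of that strength. Below 4, 8 (21.1%) were lower and 6 (15.8%) higher of 38, against 22.5% and 22.9% of the 20324 listed peaks below 4. By role, the 37 peaks of the transcription factor genes held 6 that were lower (16.2%) and 3 that were higher (8.11%). The 18 peaks of the surface protein genes held 3 (16.7%) and 5 (27.8%). Over all listed peaks the shares were 20.6% and 20.4%. The roles differed in strength, with an overall mean of 4 or more at 16 of the 37 and 3 of the 18 peaks. Of the 18, the 5 peaks of Gpr17 lay inside Lims2 and held 1 that was lower and 2 that were higher.

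**Figure D3:**
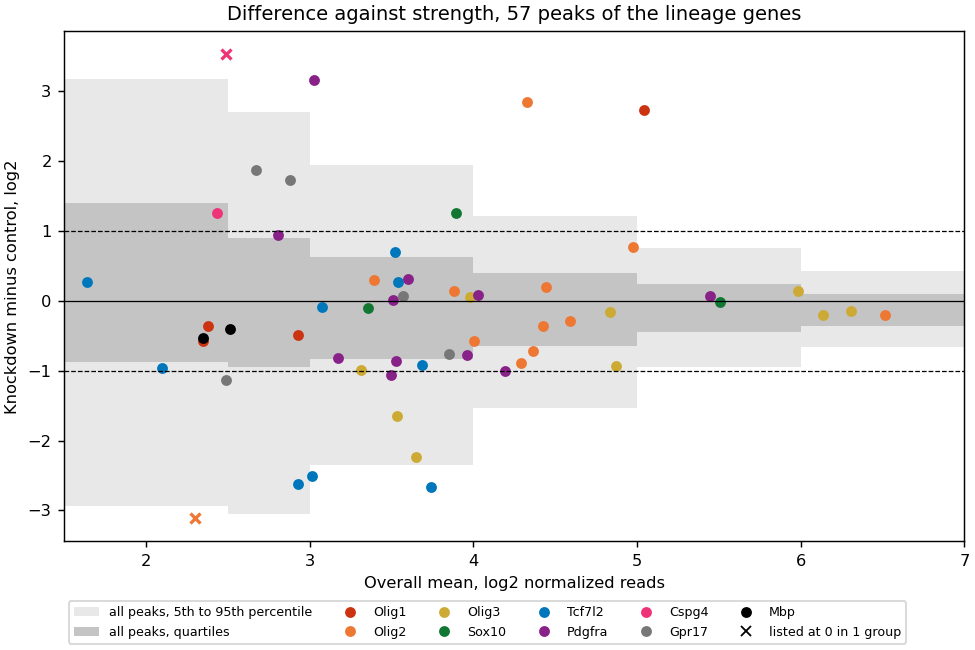
Knockdown minus control difference (log2) against the overall mean (log2 normalized reads) for the 57 member peaks, 1 point a peak, coloured by gene, with crosses for peaks listed at 0 in a group. Dark and light bands show the middle 50% and the 5th to 95th percentile of all listed peaks in bins of the overall mean, and dashed lines mark 2-fold. The band narrows to the right, where the Olig1 peak (2.73) and the Olig2 downstream peak (2.83) stand above it.

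Taken by window, 2 of the 9 genes with peaks had a sum higher in the knockdown by 2-fold or more (Olig1 and Cspg4) and 0 had a lower one, beside 16.2% and 12.8% of 9216 protein-coding windows with a peak. With flanks of 50 kb the windows of Olig1 and Olig2 share peaks, and the Olig1 ratio of 1.36 became 0.27, below 2-fold. The Cspg4 ratio of 2.17 rests on 4.32 and 19.4 reads and on a listed 0 taken as 1 read. Ratios were above 0 for Olig1, Cspg4, Sox10 (0.23) and Gpr17 (0.16), and below 0 for Olig2, Olig3, Pdgfra, Mbp (-0.46) and Tcf7l2, although with flanks of 50 kb Olig2 (0.18) and Pdgfra (0.06) lay above 0. The spread of this ratio was narrower where a window held many peaks. The middle 50% of all windows with a peak lay between -0.47 and 0.65. That of windows with 9 or more peaks lay between -0.25 and 0.07, which holds Olig2 and Pdgfra but not Olig3 or Tcf7l2. These windows were not matched on peak strength.

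**Figure D4:**
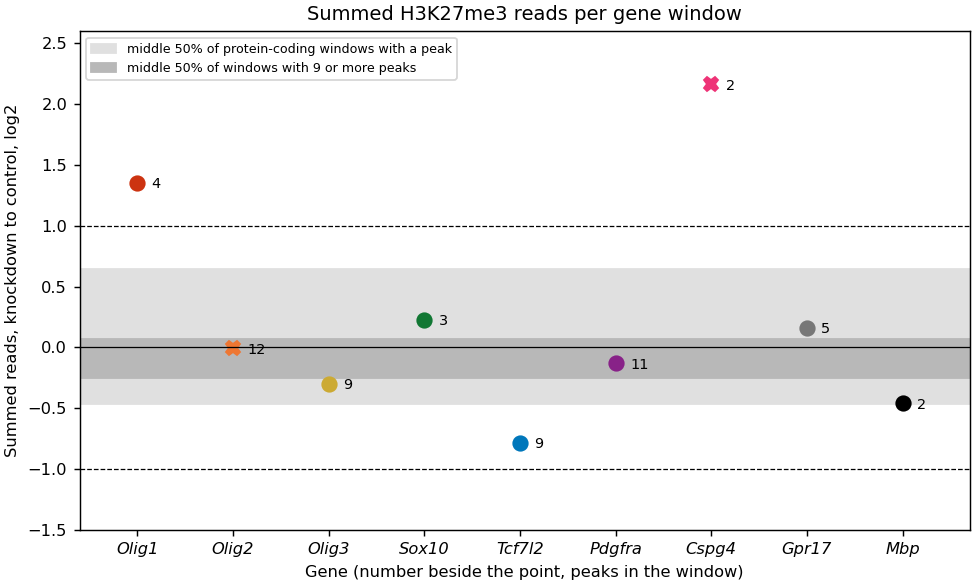
Log2 ratio of knockdown to control reads summed over the peaks of each window, 1 point a gene, with the number of peaks beside it and crosses where a peak was listed at 0 in a group. Light and dark bands hold the middle 50% of protein-coding windows with any peak and with 9 or more, and dashed lines mark 2-fold. Olig1 (1.36) and Cspg4 (2.17) lie above 2-fold and Tcf7l2 (-0.78) lies lowest.

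By the values of their windows, the protein-coding genes outside the 10 closest to Olig2 were Lhx6, Ccdc155 and Tll2. Those closest to Tcf7l2 were Cldn10, Samd4b and Rspo4. Closeness was the Euclidean distance in log2 covered bases, log2 summed control reads and the log2 ratio, each divided by its SD over genes. It used the 2 group means only, and the like reads and ratios given next follow from this choice. Lhx6, a homeobox gene of cortical interneurons, had 12 peaks with 325.7 reads in the control and 308.0 in the knockdown. Cldn10, which encodes a tight-junction protein, had 9 peaks with 96.5 and 59.0 reads, a log2 ratio of -0.71.

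The genes were chosen by name and not by the strength, width or sequence of their peaks, although earlier results of these data were known. The 57 peaks were stronger (median overall mean 3.57 against 2.93) and wider (median 591 against 426 bp), and 24.6% spanned at least 1 kb, against 9.72%. Their median CpG content was 2.08 CG per 100 bases against 1.23, and 1.81 without the start peaks. This excess did not hold throughout among like peaks. The 6 start peaks had a median of 5.31, against 4.59 over all peaks within 1 kb of a protein-coding start. Among peaks with an overall mean of 4 or more, the lineage peaks had 2.49 against 3.33 over all such peaks. For peaks of at least 1 kb the medians were 3.24 and 3.48, and for peaks under 1 kb 1.60 and 1.14. The Olig1 start peak had 8.26 CG per 100 bases, a content reached by 2.10% of all listed peaks. The start peaks of Pdgfra (6.80) and Olig2 (6.25), next in CpG content, differed by 0.06 and -0.20.

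**Figure D5:**
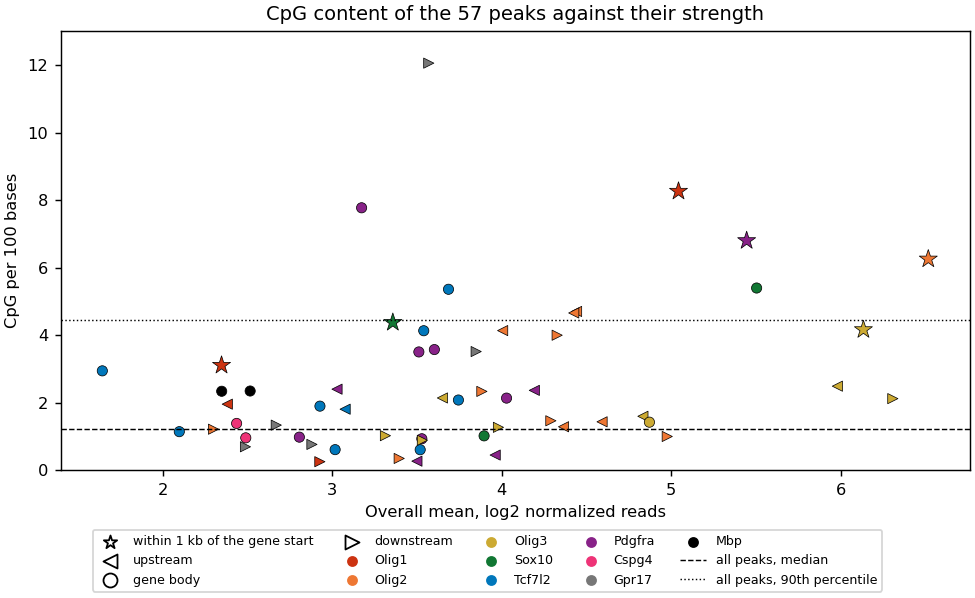
CG dinucleotides per 100 bases of each of the 57 peaks against the overall mean (log2 normalized reads), coloured by gene and shaped by place. Dashed and dotted lines show the median (1.23) and the 90th percentile (4.44) of all listed peaks. Stars are peaks within 1 kb of a gene start, of which Olig1, Pdgfra and Olig2 lie above the dotted line, and the highest point is a Gpr17 window peak over a UTR of Lims2 (12.1).

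Further genes of the lineage were taken from 3 lists of 33 genes in all. Of these, 26 had a listed peak in their window and 12 a start peak, with 106 peaks in all. Over all protein-coding genes the shares were 42% and 9.78%. In the knockdown, 27 (25.5%) were lower and 19 (17.9%) higher by 2-fold, beside 20.6% and 20.4% of all listed peaks. Among the 46 peaks of further regulators, 16 were lower and 5 higher. The 23 peaks of precursor genes held 5 of each, and the 37 peaks of myelin and maturing oligodendrocyte genes held 6 that were lower and 9 that were higher. Of the 46 regulator peaks, 4 of the lower ones lay at Nkx2-2 and 4 at Sox6.

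Nkx2-2, a homeobox regulator of oligodendrocyte differentiation, had the most peaks of these genes (16). Its start peak had 6.21 and 6.61 in control and knockdown, and a second one 0.961 kb into the gene had 4.10 and 3.46. Nkx6-2, a homeobox gene of myelinating cells, had the strongest start peak of the further genes, with 6.82 and 6.67. All 6 peaks in the Nkx6-2 window were lower in the knockdown, and their sum was 82.4% of the control. The lowest difference there, -3.14, was at a peak 5.11 kb upstream, with 4.16 and 1.02. Myrf, the membrane-bound regulator that turns on myelin genes, had a single peak 0.593 kb into the gene, with 4.20 and 2.93, a difference of -1.28. Zfp488, a zinc finger cofactor of OLIG2, had a single start peak with 4.38 and 5.18. The start peak of Sox6, which holds precursors from maturing, was weak, with 2.73 and 2.63. Of the regulators with a start peak, Myrf thus showed the lowest difference there.

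Among the precursor genes, the stronger start peak of Lhfpl3 had control and knockdown means of 3.84 and 4.55, and the weaker one 2.53 and 2.37. The start peaks of Matn4 had 3.48 and 4.82 for the stronger and 3.12 and 2.36 for the weaker. Pcdh15 had 2.19 and 3.18 at its start. C1ql1 had 3 start peaks, the strongest with 4.95 and 5.22 and the others with 3.23 and 4.13 and with 3.21 and 3.24. The strongest start peaks of these 4 genes differed by 0.27 to 1.33, that of Matn4 alone past 2-fold, and the other 3 precursor genes had no listed peak. Of the myelin genes, Cldn11, a tight-junction gene of myelin, had 2.85 and 2.08 at its start, Ugt8a, which makes a myelin lipid, had 3.74 and 3.11, and Fa2h, which hydroxylates its fatty acids, had 3.53 and 3.60. Opalin, a membrane protein of oligodendrocytes, had 7 peaks and no start peak, and its window summed to 59.7 reads in the control and 86.4 in the knockdown, with 1 peak listed at 0 in the control.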

How the data were processed

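H3K27me3 ChIP-seq of mouse primary hippocampal neurons was used. The authors sequenced single-end reads of 50 bases, aligned them with bowtie2 to the mm10 build, found peaks with the broad setting of MACS2 (q below 0.1) and compared the groups with DiffBind, using its DESeq2 option. Versions are not given in the sources used here, nor are the normalization, duplicate removal, input subtraction and merging of peaks. The authors deposited log2 means of normalized reads per peak, over all libraries and per group, and these 3 columns were used. The deposited columns of their own comparison (a fold, a p-value and an FDR per peak) were not used. The number of per-sample columns left unused was 0.

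Groups were taken from the sample titles. Analyses were run in Python 3.11.15 with numpy 2.4.6 and pandas 2.3.3, and figures were drawn with matplotlib 3.10.9. Peaks were overlapped with gene windows (20 kb flanks, GENCODE M21, a gene start being the outer end of the gene model). Means were turned back into reads as 2 to the power of the mean, a listed 0 counting as 1 read, and summed per window. CG content was read from the GRCm38 genome for 23642 peaks, and 26 peaks on unplaced sequence had none. The scripts were tested on simulated data. Neither count models nor p-values were computed, since the values are group means.

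The genes, lists and limits were chosen with earlier results of these data known. All 10 genes are named, and of their peaks those near a start, the strongest, those with the lowest and the highest difference and those listed at 0. Further genes are named where they had a start peak or were among the 5 with the most peaks. Some neighbouring peaks in the Olig2, Olig3, Tcf7l2 and Pdgfra windows were added after their values were seen. Alternatives were other windows (5 kb, 50 kb or the gene body), limits, strength and width filters, centring, and other start definitions.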

Additional observations from a re-analysis of the deposited data

How the results depend on the processing

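No paired analysis was possible because the deposited values are group means, and for the same reason no library could be left out. A count was taken as moved past 1.5 times its value and a log2 value past 0.1. The 9 lower peaks became 4 with 5 kb flanks, 3 with the gene body only, 5 at a limit of 2, 22 at a limit of 0.5, and 1 with an overall mean of at least 4 or a width of at least 1 kb. The 8 higher peaks became 4 with the gene body only, 4 at a limit of 2, and 2 with an overall mean of at least 4 or a width of at least 1 kb. The median difference became -0.065 with the gene body only and -0.085 for peaks of at least 1 kb, and stayed below 0 under every alternative. With starts taken within 3 kb there were 16 start peaks with 2 higher. Within 1 kb of any protein-coding transcript start there were 14, with 1 lower and a median difference of -0.0039. The median CG content was 3.24 per 100 bases for peaks of at least 1 kb. Of the further genes' peaks, 3 lower and 2 higher had an overall mean of at least 4, an alternative chosen after seeing the data. The ratio over all windows moved by no more than 0.1. The Olig1 window ratio turned to -0.48 without its strongest peak. Of 53 alternatives for single genes, 38 stayed within 0.1, 14 moved further and 1, the Olig1 value just given, turned the sign of a ratio past 2-fold. Ratios nearer to 0 also changed sign, Olig2 under 4 alternatives (0.03 to 0.18) and Pdgfra with 50 kb flanks (0.06). The filters and windows change these counts by keeping fewer or more peaks.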
